A study of Mus musculus with 6 samples.

Results

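These data concern the intronic sites that FOXC2 occupied in podocytes of PBS-treated mice and that were absent from the peak list of ADR-treated mice. FOXC2 ChIP-seq was done on podocytes of mT/mG mice, in which a Cre transgene active in podocytes turns on a membrane reporter so that the cells can be sorted by FACS. Adult males received adriamycin (ADR), a podocyte toxin, at 18 mg/kg on day 0 and day 7, or PBS on the same days, and podocytes were collected on day 9. Each condition had 3 samples, which the authors pooled into 1 peak list per condition. From these lists replicate error could not be estimated and no test between the conditions was possible. The paper itself compared the ChIP signals of PBS and ADR directly, over sites of every class. It reported decreased or lost binding at a minority of the peaks bound only in PBS. All mice carried the reporter and the Cre. The lists hold no expression values, so the sorted cell type could not be checked against its marker genes. The read depth behind either list is unknown.

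The sites were chosen by a rule that used the peak lists themselves. A site was a PBS peak that shared no base with any ADR peak and whose summit lay in an intron of a GENCODE M21 transcript (GRCm38), outside promoters (1 kb before to 100 bp after a transcript start), transcript ends (100 bp before to 1 kb after) and exons. The rule found 6138 sites among 41075 PBS peaks. Of all PBS peaks, 33.1% shared no base with an ADR peak, and of the 15757 intronic PBS peaks 39.0% did. These shares follow from the rule and are given as background only. For comparison, 9619 intronic PBS peaks overlapped an ADR peak (sites of both lists), and 7199 intronic ADR peaks overlapped no PBS peak (ADR-only sites). Intervals below are 95% intervals, by Wilson's method for a share and Newcombe's method for a difference of shares. They cover counting error only, and sites in the same gene are not independent.

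FOXC2 belongs to the forkhead family of transcription factors, which bind DNA through a winged-helix domain and recognise a short A-rich core. In podocytes it is known to act with WT1, a zinc finger protein that binds G-rich sites. Many introns carry enhancers, where several factors bind close together, and AP-1, a dimer of FOS, JUN or ATF proteins, is a frequent partner at enhancers in cells that respond to growth factors or stress. TEAD proteins bind DNA for the coactivators YAP and TAZ, and LMX1B is a homeodomain factor required in podocytes.

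The sequences shown here are those of the sites with the highest fold that held an AP-1, forkhead, WT1 or TEAD match within 100 bp of the summit, because the share of PBS-only sites with each of these matches is compared with that of the other intronic sites. Each line gives the 201 bases centred on the summit, 5′ to 3′ on the forward strand of GRCm38, with the matches to these 4 motifs in capitals. An AP-1 match was TGACTCA or TGAGTCA. A forkhead match was A or G, then C or T, then AAA, then C or T, then A. A TEAD match was CATTCC after A or G and before A or T. A WT1 match was GNG, then G or T, then GGG, then A or C, then G. Both strands were searched.
Ank1 intron 1, chr8:23048391-23048591: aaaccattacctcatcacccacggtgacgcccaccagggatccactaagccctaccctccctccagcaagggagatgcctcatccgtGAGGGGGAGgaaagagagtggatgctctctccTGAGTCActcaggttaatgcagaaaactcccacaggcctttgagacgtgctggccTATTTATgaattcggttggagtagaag
Ank1 intron 1, chr8:23038483-23038683: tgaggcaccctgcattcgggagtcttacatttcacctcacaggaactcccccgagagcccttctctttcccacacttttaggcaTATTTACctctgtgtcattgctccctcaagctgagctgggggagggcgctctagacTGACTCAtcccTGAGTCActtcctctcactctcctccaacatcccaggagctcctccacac
St5 intron 4, chr7:109546765-109546965: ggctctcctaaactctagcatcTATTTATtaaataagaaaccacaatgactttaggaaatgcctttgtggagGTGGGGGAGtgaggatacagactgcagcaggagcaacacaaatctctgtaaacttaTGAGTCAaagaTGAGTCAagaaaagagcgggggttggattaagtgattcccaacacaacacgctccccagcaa
Fhl2 intron 1, chr1:43168633-43168833: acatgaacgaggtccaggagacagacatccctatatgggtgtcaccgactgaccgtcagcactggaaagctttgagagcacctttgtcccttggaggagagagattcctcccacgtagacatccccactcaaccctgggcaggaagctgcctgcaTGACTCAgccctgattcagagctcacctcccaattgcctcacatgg
Adgrd1 intron 21, chr5:129190193-129190393: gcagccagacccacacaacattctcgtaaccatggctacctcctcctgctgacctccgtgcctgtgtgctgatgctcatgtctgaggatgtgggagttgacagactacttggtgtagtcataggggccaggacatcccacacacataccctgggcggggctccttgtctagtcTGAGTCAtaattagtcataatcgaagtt
Pced1b intron 3, chr15:97315408-97315608: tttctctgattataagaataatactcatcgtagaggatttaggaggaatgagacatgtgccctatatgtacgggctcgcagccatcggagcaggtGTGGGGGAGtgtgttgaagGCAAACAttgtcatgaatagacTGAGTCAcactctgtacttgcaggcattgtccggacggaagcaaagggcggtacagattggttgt
Gm9530 intron 3, chr1:155074917-155075117: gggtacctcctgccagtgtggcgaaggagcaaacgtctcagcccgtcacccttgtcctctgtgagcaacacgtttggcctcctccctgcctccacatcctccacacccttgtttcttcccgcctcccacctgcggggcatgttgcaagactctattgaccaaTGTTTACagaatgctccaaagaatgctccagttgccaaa
Gm17173 intron 1, chr14:45005893-45006093: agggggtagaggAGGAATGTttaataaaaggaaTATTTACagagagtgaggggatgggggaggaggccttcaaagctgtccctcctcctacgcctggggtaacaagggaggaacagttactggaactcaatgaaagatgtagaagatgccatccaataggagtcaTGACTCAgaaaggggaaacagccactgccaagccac
Enpp6 intron 2, chr8:47032220-47032420: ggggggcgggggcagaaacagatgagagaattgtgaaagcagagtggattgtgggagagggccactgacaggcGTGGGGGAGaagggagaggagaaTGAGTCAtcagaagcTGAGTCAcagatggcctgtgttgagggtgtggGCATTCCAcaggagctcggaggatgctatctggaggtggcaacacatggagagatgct
Iqgap2 intron 32, chr13:95633539-95633739: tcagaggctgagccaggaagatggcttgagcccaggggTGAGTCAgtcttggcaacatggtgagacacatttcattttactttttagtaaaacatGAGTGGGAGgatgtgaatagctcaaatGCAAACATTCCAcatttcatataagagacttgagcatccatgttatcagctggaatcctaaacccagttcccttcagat

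Counted from 1 at the first base of each window, the first *Ank1* sequence held a WT1 match at 88, an AP-1 match at 120 and a forkhead match at 175, so that all 3 lay within 1 window. *St5* held a forkhead match at 23, a WT1 match at 73 and AP-1 matches at 129 and 140. In the second *Ank1* sequence a pair of AP-1 matches likewise began 11 bp apart, at 141 and 152. In *Iqgap2* the forkhead match at 123 and the TEAD match at 127 overlapped, and an AP-1 match stood at 39. The strongest site, in *Gm9530*, held a forkhead match at 163 and no AP-1 match.

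The PBS-only sites were on the whole weak peaks. Their fold enrichment over the local control, as the authors give it, had a median of 5.14 (quartiles 4.41 and 6.27) and ran from 2.07 to 41.1. In 297 sites (4.84%) the fold was 10 or more, and in 32 it was 20 or more. The sites of both lists had a median PBS fold of 7.64, with 34.8% at 10 or more, and the ADR-only sites had a median ADR fold of 6.05, with 18.5% at 10 or more. The share of intronic PBS peaks that were PBS-only was 63.5% below a fold of 4 and 2.95% at a fold of 20 or more. The median peak width was 243.5 bp for the PBS-only sites, 339 bp for sites of both lists and 271 bp for ADR-only sites. The −log10 q of the PBS-only sites began at 1.34 and was under 5 in 36.0% of them. Overlap was the rule, and fold, width and q come from the same peak calls, so these values are a description without a test.

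**Figure D1:**
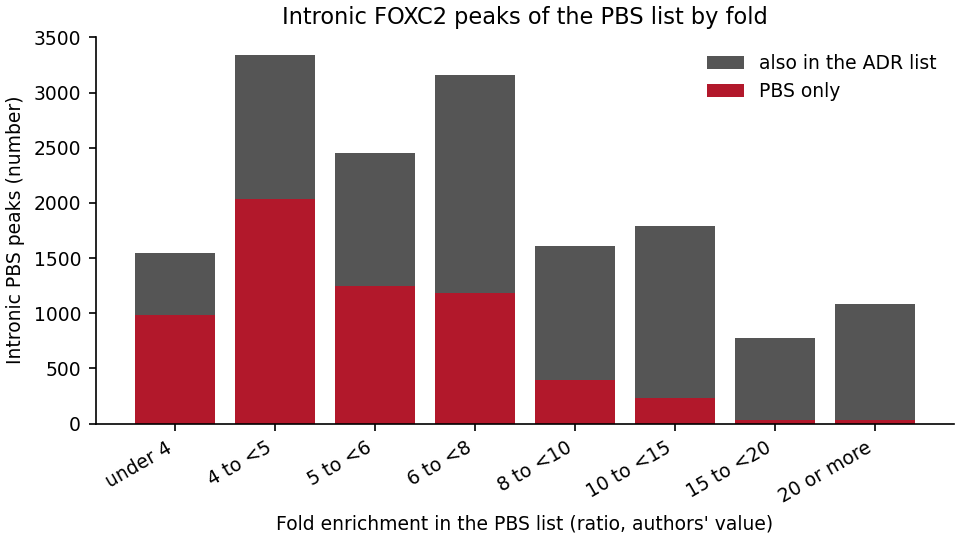
Number of intronic PBS peaks (vertical axis) by the authors' fold enrichment in the PBS list (horizontal axis), split into peaks that were PBS-only (red) and peaks that overlapped an ADR peak (gray). PBS-only peaks made up 63.5% of the peaks below a fold of 4 and 2.95% of those at 20 or more.

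Sites close to the edge of the rule were as follows. The PBS-only site nearest to an ADR peak lay in *Sun1*, which encodes a protein of the inner nuclear membrane, at chr5:139200866-139201069 with a PBS fold of 4.02, and 4 bp separated it from an ADR peak with a fold of 12.7. Gaps of 5 bp and 7 bp followed in *Mgrn1*, a ubiquitin ligase gene, and in *Hs1bp3*. Just outside the rule, intronic PBS peaks of *Gm40578* and *Sh3bp5* overlapped an ADR peak by 8 bp, with PBS folds of 19.2 and 4.29, and one of *Gramd4*, with a fold of 3.68, did so by 13 bp. Such near misses were uncommon, since the gap to the nearest ADR peak was under 100 bp at 90 sites (1.47%) and had a median of 6806 bp. The median fold was 4.69 at those 90 sites and 5.23 at the 2535 sites more than 10 kb from an ADR peak.

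The 20 PBS-only sites with the highest fold ran from 41.1 to 23.3. The strongest lay at chr1:155074787-155075365 in intron 3 of *Gm9530*, a long noncoding RNA gene, with a fold of 41.1 and a gap of 7813 bp to the nearest ADR peak. Next came *Ank1*, which encodes an ankyrin that ties membrane proteins to spectrin, with a fold of 35.2 at chr8:23048244-23048761. A second site in the same first intron of *Ank1*, at chr8:23037989-23038924, had a fold of 30.8. The nearest ADR peak lay 52114 bp from the stronger *Ank1* site.

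Others of these sites lay in the following genes, which are described singly and were not tested as a group. *Fhl2*, a LIM-domain cofactor of focal adhesions and the nucleus, had a fold of 31.3 in intron 1. *Mical2*, an enzyme that oxidises actin, had a fold of 26.1 in intron 3. *Myo1d*, a class I myosin, had a fold of 27.1 in intron 16, and *Cgn*, the gene of cingulin, a protein of tight junctions, had a fold of 26.9 in intron 1. *Chn1*, a GTPase-activating protein for RAC, had a fold of 27.2 in intron 1. Of the 20 sites, 10 lay in a first intron and 2 in genes that do not encode protein.

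*St5*, which encodes a DENN-domain protein, had a fold of 31.8, and *Adgrd1*, an adhesion G protein–coupled receptor, had a fold of 31.0. *Pced1b* reached 29.5 and *Thada* 27.7. *Prkca*, protein kinase C alpha, had a fold of 26.1 at chr11:108267894-108268626, and this peak lay 79 bp from an ADR peak. *Peli2*, a ubiquitin ligase of innate immune signaling, had a fold of 25.9, and *Agap1*, a GTPase-activating protein for ARF, had a fold of 25.2 with an ADR peak 298 bp away. The list closed with *Gm17173* (24.9), *Unc13c* (24.5), *Twist2* (23.7) and *Usp6nl* (23.3), of which *Twist2* encodes a basic helix-loop-helix factor. An AP-1 match lay within 100 bp of the summit at 13 of the 20 sites, a forkhead match at 9 and a WT1 match at 7. Over all PBS-only sites the shares with these matches were 18.9%, 22.3% and 20.01%. At folds of at least 10 they were 41.4%, 24.2% and 34.3%.

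Among the 16 motifs searched, AP-1 had the largest excess at PBS-only sites over each of the other groups of intronic sites. Of 6138 sites, 1159 held a match within 100 bp of the summit, or 18.9% (interval 17.9% to 19.9%). In windows of the same length 1 kb to either side of the summits the share was 4.15%, and over all PBS peaks it was 9.33%. Sites of both lists held AP-1 in 7.33%, which is 11.6 percentage points less than the PBS-only sites (interval of the difference 10.5 to 12.7). ADR-only sites held it in 2.38%, which is 16.5 points less (interval 15.5 to 17.6) and below the 3.67% in their own flanking windows. The motif was not used by the rule.

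Introns were not the only place with this pattern. Intergenic PBS-only peaks held AP-1 in 20.4%, and the difference from the intronic sites, −1.53 points, had an interval from −3.17 to 0.080 that includes 0. Promoter PBS-only peaks held AP-1 in 8.91%, which is 9.97 points less than the intronic sites (interval 8.43 to 11.4). Between the 20 chromosomes with sites, the AP-1 share of the PBS-only sites ranged from 8.51% on X, which had 47 sites, to 23.1% on chromosome 13.

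AP-1 matches were concentrated at the summit. In bins of 50 bp, the PBS-only sites had 55.4 matches per 1000 sites just before the summit and 58.8 just after it, against 10.6 and 8.63 at the ends of a window that reached 500 bp to each side. Sites of both lists rose to 20.2 and 21.3 per 1000 at the summit, and ADR-only sites had 5.56 and 6.81 there. The nearest match lay a median of 43 bp from the summit in the 1159 PBS-only sites with one. Of these sites, 114 (9.84%) held at least 2 matches and none held more than 3, while 32 of 705 sites of both lists (4.54%) and 2 of 171 ADR-only sites (1.17%) held at least 2. Among 120 pairs of neighboring matches in PBS-only windows, 24 began 11 to 20 bp apart, as in *St5* and *Ank1*, and 3 began closer together than that.

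**Figure D2:**
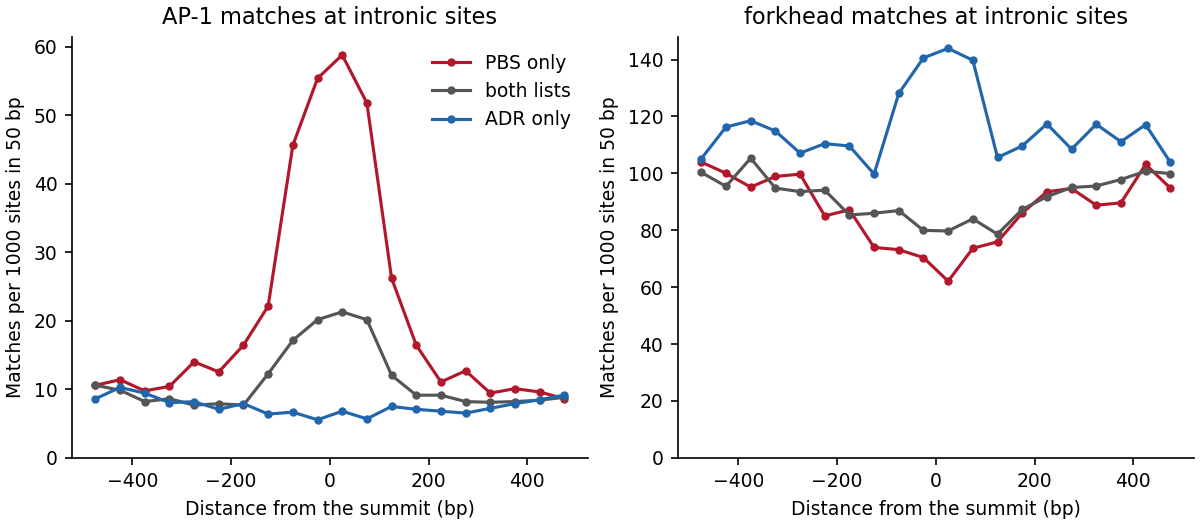
AP-1 matches (left) and forkhead matches (right) per 1000 intronic sites in bins of 50 bp, by distance from the peak summit, for PBS-only sites (red), sites of both lists (gray) and ADR-only sites (blue). AP-1 peaked at 58.8 per 1000 at PBS-only summits, where forkhead matches fell to 62.1 per 1000, while at ADR-only summits forkhead matches rose to 144 per 1000.

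Stronger sites held AP-1 more often. When the PBS-only sites were split into quintiles by fold, the AP-1 share was 12.2% in the lowest (interval 10.5% to 14.2%), 15.4%, 17.8% and 19.1% in the next, and 29.9% in the highest (interval 27.4% to 32.5%). Among the 297 sites with a fold of at least 10 it was 41.4% (interval 36.0% to 47.1%). The sites of both lists went from 4.11% in their lowest quintile to 12.0% in their highest. The ADR-only sites had 2.50% in the lowest and 1.88% in the highest quintile. The AP-1 share was 18.9% both in first introns and in later introns, and was 15.7% at sites within 1 kb of an ADR peak against 19.5% at sites farther away.

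**Figure D3:**
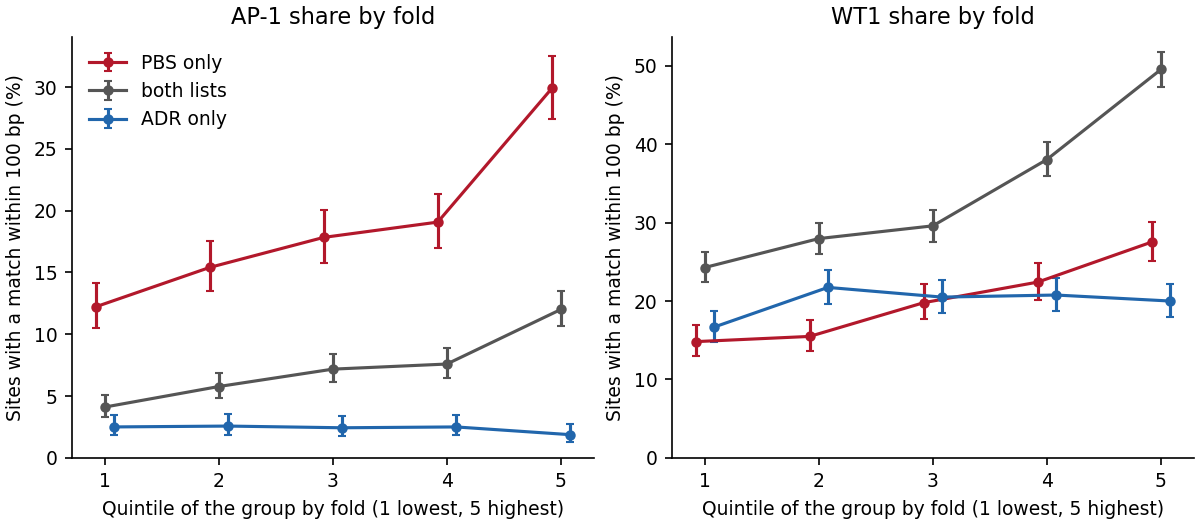
Share of intronic sites with an AP-1 match (left) or a WT1 match (right) within 100 bp of the summit, in quintiles of each group by its own fold, with 95% Wilson intervals, for PBS-only sites (red), sites of both lists (gray) and ADR-only sites (blue). The AP-1 share of PBS-only sites went from 12.2% to 29.9%, and the WT1 share of sites of both lists went from 24.3% to 49.5%.

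The forkhead motif, the class of motif that FOXC2 itself recognises, was less frequent at these summits than beside them. It was matched at 1371 PBS-only sites, or 22.3%, against 27.3% in the flanking windows. Matches fell from 104 per 1000 sites at 500 bp before the summit to 62.1 just after it. This was not particular to these sites, since all PBS peaks held a forkhead match in 19.5%, against 27.4% in their flanks. Intergenic PBS-only peaks held one in 23.5%, against 28.9% in their flanks. Promoter PBS-only peaks held one in 13.1%, also below their flanks. The ADR-only sites held a forkhead match in 38.9%, which is 16.6 points more than the PBS-only sites (difference −16.6, interval −18.1 to −15.0), with 31.0% in their flanks. Sites of both lists held it in 25.9%, 27.9% in their flanks. The median GC content of the windows was 51.7% in PBS-only, 52.7% in sites of both lists and 49.3% in ADR-only sites. It was lowest in the ADR-only sites, but did not follow the forkhead share between the other groups. With GC content made equal the difference of PBS-only from ADR-only sites was −10.7 points.

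WT1 matches were present in 1228 PBS-only sites, or 20.01%, against 5.23% in the flanks. This share was 13.9 points lower than in sites of both lists, which held a WT1 match in 33.9% (difference −13.9, interval −15.2 to −12.5). From the ADR-only sites, at 19.9%, it differed by 0.073 points (interval −1.29 to 1.44). The WT1 share went with the fold, from 14.8% in the lowest to 27.5% in the highest quintile of PBS-only sites and from 24.3% to 49.5% in sites of both lists. With the groups weighted to the same folds, the PBS-only sites held 8.40 points less than sites of both lists.

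TEAD matches were held by 482 PBS-only sites, or 7.85%, which was less than in sites of both lists (11.7%, difference −3.86, interval −4.79 to −2.92), and above the 3.46% of their flanks. LMX1B (TTAATTA or TAATTAA) was matched in 79 PBS-only sites, or 1.29%, below the 2.78% of the flanks, against 6.70% of ADR-only sites (difference −5.41, interval −6.06 to −4.77). KLF matches, GGG followed by C or T, G, G or T and GG, were held by 11.7% of PBS-only and 8.63% of ADR-only sites (difference 3.09, interval 2.06 to 4.13). The E-box CAGCTG, a core bound by basic helix-loop-helix factors such as TCF21, was held by 15.2% of PBS-only, 19.02% of both-list and 21.1% of ADR-only sites. A match is a match of letters and does not show a bound factor.

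Some rarer motifs were more frequent in PBS-only than in ADR-only sites. The ETS motif CCGGAAG was held by 2.93% against 0.74% (difference 2.20, interval 1.74 to 2.68). The glucocorticoid response element, searched as the palindromic receptor site, was held by 90 PBS-only sites, or 1.47%, against 0.33% of ADR-only sites and 0.34% of the PBS-only flanks (difference from ADR-only sites 1.13, interval 0.82 to 1.48). Sites of both lists held the ETS motif in 2.22% and the glucocorticoid element in 0.90%. Neither was particular to introns, since intergenic PBS-only peaks held them in 2.69% and 1.59%. Promoter PBS-only peaks held them in 7.31% and 0.59%. RUNX matches (TGTGGTT) stood at 4.68% in PBS-only sites and 4.95% in their flanks. The MAF core TGCTGAC or TGCTGAG, which can overlap an AP-1 match by its last 4 letters, was held by 12.2% of PBS-only sites, 12.7% of both-list sites and 14.2% of ADR-only sites.

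**Figure D4:**
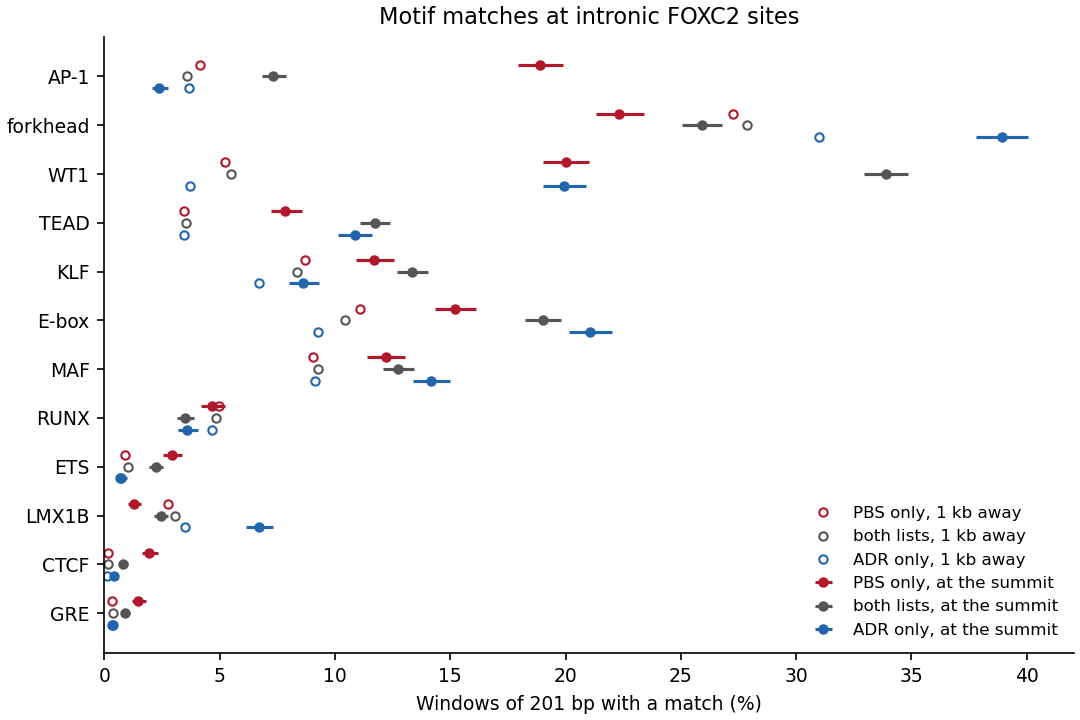
Share of 201-bp windows with a match to each of 12 motifs at intronic PBS-only sites (red), sites of both lists (gray) and ADR-only sites (blue). Filled points are windows at the summit with 95% Wilson intervals and open points are windows 1 kb to either side. AP-1 at PBS-only summits (18.9%) stood far to the right of its flanks (4.15%), whereas forkhead at PBS-only summits (22.3%) stood to the left of its flanks (27.3%).

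The other motifs were also counted at the sites with and without AP-1. A forkhead match was present in 24.5% of PBS-only sites with AP-1 and in 21.8% of those without (difference 2.67, interval 0.012 to 5.47). WT1 was present in 17.3% with AP-1 and in 20.6% without (difference −3.28, interval −5.65 to −0.75). A MAF match, which shares letters with AP-1, was present in 15.2% and 11.5%. In sites of both lists it was present in 21.3% with AP-1 and in 12.1% without. In ADR-only sites it was present in 40.9% with AP-1 and in 13.5% without (difference 27.4, interval 20.3 to 35.0). Sites with AP-1 had a median fold of 5.53 and the 4979 sites without it a median of 4.98. Of the 6138 sites, 2395 (39.0%) held none of the AP-1, forkhead, WT1, TEAD, KLF, LMX1B and CTCF motifs.

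Most sites lay deep inside protein-coding genes. The host transcript was that of a protein-coding gene at 5492 sites (89.5%), a long intergenic noncoding RNA at 392 and an antisense RNA at 117. The first intron held 2723 sites, or 44.4% (interval 43.1% to 45.6%), and the second intron 1167. This share was 2.29 points lower than in sites of both lists (46.7%, difference −2.29, interval −3.89 to −0.70) and 6.79 points higher than in ADR-only sites (37.6%, interval 5.11 to 8.46). The median distance to the start of the host transcript was 30867 bp for PBS-only, 30759 bp for both-list and 44007 bp for ADR-only sites. The host intron had a median length of 25683.5 bp, and 812 sites (13.2%) lay within 500 bp of a splice site.

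The sites often shared their gene with other FOXC2 peaks. At 4144 sites (67.5%) the host gene also held an intronic site of both lists, at 2737 (44.6%) in the same intron. At 3194 sites (52.0%) the host gene also held an ADR-only site, and at 1590 (25.9%) it held neither. Of the 2923 protein-coding host genes, 2025 (69.3%) had a peak of both lists within 1 kb of a transcript start, compared with 46.4% of all 21938 protein-coding genes. Only 4916 of all protein-coding genes had an intronic PBS peak. Host genes of the other intronic sites were not counted in this way, so the difference may not be particular to hosts of PBS-only sites. Genes in the highest quintile of total intron length held 3681 sites and those in the lowest 68, while the density fell from 12.9 to 5.43 sites per megabase of intron from the lowest to the highest quintile. The share of intronic PBS peaks that were PBS-only was 40% in the lowest and 38.0% in the highest quintile.

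Of the protein-coding host genes, 1790 held 1 site, 547 held 2, 480 held 3 to 5 and 106 held more than 5. *Gm20388* came first with 34 sites, but its transcript spans many other genes and has no consensus coding sequence, and the 13 sites counted for *Fgfr2* likewise lay in a long transcript without one. Among the others, *Msi2*, an RNA-binding protein gene, held 15. *Msi2* also held 22 intronic sites of both lists and 17 ADR-only sites. *Tns1*, which encodes tensin 1, a link between integrins and actin, held 14 with 26 of both lists, and *Rbms1*, another RNA-binding protein gene, held 12 with 8.

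In *Cald1*, *Zbtb16* and *Zmiz1* the PBS-only sites outnumbered the sites of both lists. *Cald1*, which encodes caldesmon, an actin- and myosin-binding regulator of contraction, held 14 PBS-only sites, 5 sites of both lists and 0 ADR-only sites, with folds of 2.86 to 8.29. *Zbtb16*, a zinc finger transcription factor gene and a known target of the glucocorticoid receptor, held 14, 5 and 0 of the same kinds, and its strongest PBS-only site, at chr9:48707298-48707899 in intron 4, had a fold of 20.2 and both an AP-1 and a forkhead match. *Zmiz1*, a coregulator gene, held 14, 9 and 1. *Myo1e*, a class I myosin mutated in familial focal segmental glomerulosclerosis, held equal numbers of PBS-only and both-list sites, 12 each, and 7 ADR-only sites.

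*Myo1e* also held the run with the most sites. Its 10 sites between positions 70242585 and 70291186 of chromosome 9 followed each other at no more than 10 kb, and 6 of them held AP-1. The strongest of these, in intron 2 at chr9:70290697-70291186, had a fold of 20.5 with 1 AP-1 and a forkhead match, and 2 more in intron 1 had folds of 12.6 and 11.9, each with an AP-1 match. Of all PBS-only sites, 1972 (32.1%) lay in such runs of 2 or more. *Hspg2*, which encodes perlecan, the heparan sulfate proteoglycan of basement membranes, held a run of 7 sites with AP-1 at 4 of them. Runs of 7 in *Spata13* and *Adgrg1* held AP-1 at 1 site each. A run of 9, counted for *Trpm8* in a transcript without a consensus coding sequence, lay between positions 88284347 and 88301386 of chromosome 1 with folds up to 6.62 and no AP-1 match.

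Among genes with no intronic site of both lists and all sites in transcripts with a consensus coding sequence, *Nsmce2*, a SUMO ligase gene of the SMC5/6 complex, held the most PBS-only sites, with 7, up to a fold of 14.5. *Baiap2l1*, which encodes a membrane-bending actin regulator, held 6 with folds of 4.98 to 9.74, and 2 of them had AP-1. The host gene was less certain for *Trpm8*, a cation channel gene counted with 10 sites, since only 1 of them lay in a transcript with a consensus coding sequence. That site had a fold of 19.7 and an AP-1 match. *Dusp1*, the immediate early phosphatase of MAP kinases, was counted with 6, but all lay in a long transcript without a consensus coding sequence. *Rap1gap2*, *Il4ra* (the interleukin 4 receptor), *Gja5* (connexin 40) and *Stk10* held 5 each, though only 2 of those of *Gja5* lay in a transcript with a consensus coding sequence, and none of these genes except *Rap1gap2*, with 3, held an ADR-only site. All 5 sites of *Il4ra* lay in its first 3 introns, had folds of 3.94 to 8.59 and held no AP-1 match.

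The gene lists were described by the share of their intronic PBS peaks that were PBS-only. Over all protein-coding genes this was 5492 of 14344, or 38.3%. Among the lists with at least 20 such peaks it was highest for the genes of AP-1 and MAF factors, with 16 of 25 peaks (64%, interval 44.5% to 79.8%), the MAPK cascade and its feedback regulators, with 63 of 114 (55.3%, interval 46.1% to 64.1%), and extracellular matrix and basement membrane genes, with 72 of 137 (52.6%, interval 44.2% to 60.7%). It was lowest for podocyte transcription factor genes, with 13 of 84 (15.5%, interval 9.27% to 24.7%), and for 48 podocyte genes that the study took from earlier work, with 46 of 184 (25%, interval 19.3% to 31.7%). Over all protein-coding genes, 13.3% held at least 1 PBS-only site and the median total intron length of a gene was 10473 bp, and most lists had a longer median. The share of genes with a site was 1.64% in the lowest quintile of total intron length and 39.6% in the highest. These shares rest on the rule itself and were not tested, and peaks of 1 gene are not independent.

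**Figure D5:**
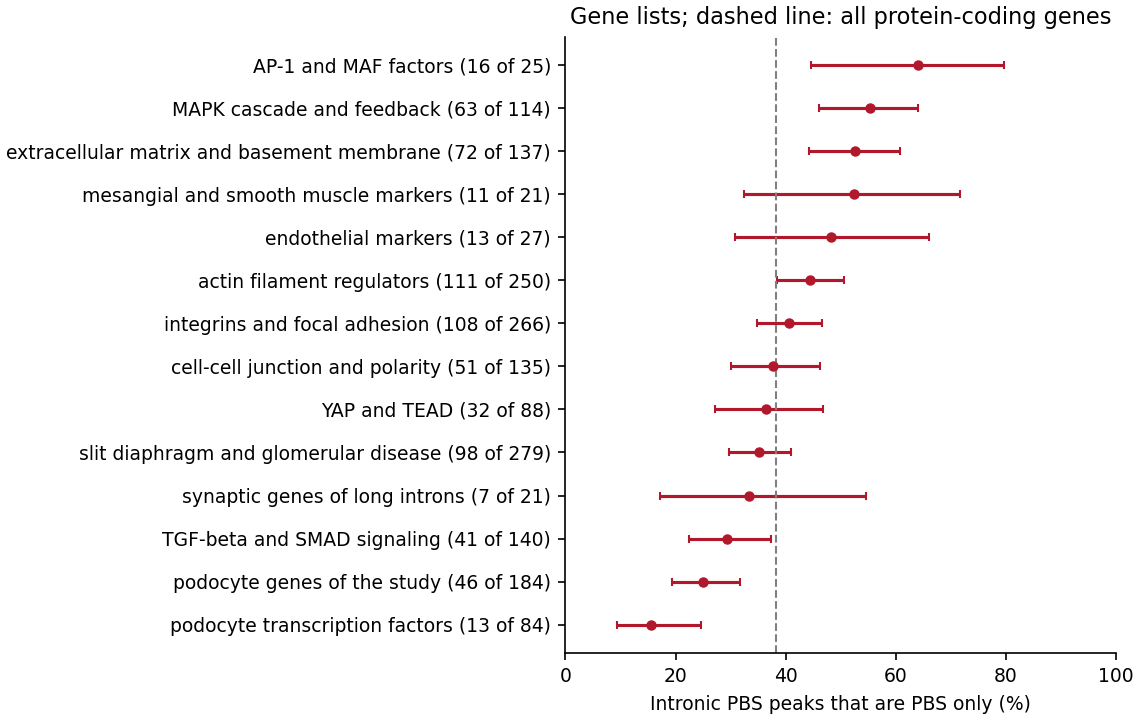
Share of intronic PBS peaks that were PBS-only in the gene lists described here with at least 20 such peaks, with 95% Wilson intervals, the number of PBS-only sites and of all intronic PBS peaks in parentheses, and the share over all protein-coding genes as a dashed line (38.3%). AP-1 and MAF factor genes stood highest, at 64%, and podocyte transcription factor genes lowest, at 15.5%.

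Of 21 AP-1 and MAF factor genes, with a median total intron length of 8350 bp, 7 (33.3%) held a PBS-only site, against 13.3% of all protein-coding genes. *Atf3*, a stress-induced member of the ATF family, held 5 in its first intron, with folds of 11.2, 8.07, 4.92, 4.21 and 3.27, alongside 1 site of both lists. A WT1 match was present at 4 of the 5. *Jdp2*, a repressor of AP-1, held 1 with a fold of 9.62, *Fosl1*, which encodes the FOS family protein FRA1, held 1 with a fold of 7.30 and an AP-1 match, and *Mafk*, a small MAF protein gene, held 2, with folds of 7.04 and 3.95. Of 48 MAPK genes, with a median total intron length of 51395 bp, 28 (58.3%) held a site. Among protein-coding genes this share was 17.9% for total intron lengths of 20244 to 51467 bp and 39.6% in the highest quintile. MAPK genes with a site included the kinase genes *Map4k3* (strongest fold 11.004), *Map3k5* (10.9) and *Map3k4* (8.66). *Spred2* (8.59), an inhibitor of RAS–MAPK signaling, held 5 PBS-only and 5 both-list sites.

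Of 47 matrix genes, with a median total intron length of 73362 bp, 24 (51.1%) held a site. This compares with 13.3% of all protein-coding genes and 39.6% of those in the highest quintile of total intron length. *Col4a1* and *Col4a2*, the adjacent genes of the alpha 1 and alpha 2 chains of type IV collagen, held 9 and 11. *Col4a1* held 1 site of both lists and *Col4a2* 5. The strongest site of *Col4a1*, at chr8:11259719-11260198 in intron 2, had a fold of 19.6 and an AP-1 match, and that of *Col4a2* had a fold of 9.11 with a WT1 and a TEAD match. *Lama5*, the laminin alpha 5 chain of the mature glomerular basement membrane, held 4 with a strongest fold of 9.88, and *Timp2*, an inhibitor of matrix metalloproteinases, held 2 with a strongest fold of 9.36.

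In actin and adhesion genes the PBS-only share of intronic PBS peaks was 44.4% and 40.6%, against 38.3% over all protein-coding genes. Of 52 actin filament regulators, 37 (71.2%) held a site, against 13.3% of all protein-coding genes. Their median total intron length was 39811.5 bp, against 10473 bp over all protein-coding genes. Of their 250 intronic PBS peaks, 111 were PBS-only (44.4%, interval 38.4% to 50.6%). The strongest were in *Mical2* (26.1), *Pdlim7* (14.0), a LIM protein gene, *Coro1c* (9.88), a coronin gene, and *Actn1* (9.62), which encodes the actin crosslinker alpha-actinin 1. Of 43 integrin and focal adhesion genes, with a median total intron length of 67721 bp, 31 (72.1%) held a site. In the highest quintile of total intron length, 39.6% of protein-coding genes did. Of the 266 peaks of the list, 108 were PBS-only (40.6%, interval 34.9% to 46.6%). *Itga8*, the integrin chain that binds nephronectin, held 4, with folds of 22.0, 5.87, 4.92 and 4.66, and *Itga9* held 6 up to 13.2, each beside 1 site of both lists. *Tns1* reached a fold of 20.6 and *Lpp*, a zyxin family gene, 14.2.

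In junction genes and genes of YAP and TEAD the PBS-only share of intronic PBS peaks was close to the 38.3% over all protein-coding genes. Of 41 junction and polarity genes, with a median total intron length of 60722 bp, 20 (48.8%) held a site. This compares with 13.3% of all protein-coding genes and 39.6% of those in the highest quintile of total intron length. Of the 135 peaks of the list, 51 were PBS-only (37.8%, interval 30.04% to 46.2%). *Cgn* led with 26.9, followed by *Magi1*, a scaffold of tight junctions and the slit diaphragm (15.8), *Pard6b* (14.5) and *Pard3* (8.91). Of 27 genes of YAP, TEAD and their targets, with a median total intron length of 43285 bp, 12 (44.4%) held a site. Of the 88 peaks of this list, 32 were PBS-only (36.4%, interval 27.1% to 46.8%). *Wwtr1*, which encodes TAZ, held 7 PBS-only sites, 5 of both lists and 0 ADR-only sites, up to a fold of 10.9. *Amotl1* (11.1), an angiomotin, *Axl* (8.59), a receptor kinase, and *Wwc1* (6.26), which encodes KIBRA, followed.

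The lists of podocyte genes had PBS-only shares from 15.5% to 35.1%. In the list of slit diaphragm and glomerular disease genes, 98 of 279 intronic PBS peaks were PBS-only (35.1%, interval 29.8% to 40.9%, which includes the 38.3% of all protein-coding genes). The list had a median total intron length of 62075 bp, and 39.6% of protein-coding genes in the highest length quintile held a site. Of its 45 genes, 27 (60%) held a PBS-only site. Besides *Myo1e* and *Magi1* these included *Kank1* (12.6), which had 4 PBS-only and 15 both-list sites, and *Dlc1*. Of the 48 podocyte genes, whose share was 25%, 17 (35.4%) held a site, against 13.3% of all protein-coding genes. Their median total intron length was 17680 bp. *Iqgap2*, a scaffold of RAC and CDC42, held 8 up to a fold of 16.6, *Igfbp7* held 4 up to 12.1, *Podxl*, which encodes the apical sialomucin podocalyxin, held 3 up to 10.4 beside 7 of both lists, and *Ildr2* held 3 up to 10.3. Of 16 podocyte transcription factor genes, 7 held a site (43.8%, against 13.3% of all protein-coding genes). *Wt1* held 2, with folds of 5.75 and 4.46, *Klf6* and *Nfib* held 1 each, and *Tead1* held 3 beside 14 sites of both lists.

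In TGF-beta and SMAD genes, 41 of 140 peaks were PBS-only (29.3%, interval 22.4% to 37.3%). They lay in 21 of 44 genes (47.7%), against 13.3% of all protein-coding genes. The median total intron length of the list was 45053 bp, against 10473 bp over all protein-coding genes. *Smad3*, the transcription factor that carries the TGF-beta signal, held 3 PBS-only sites, all in intron 1, with folds of 20.2, 9.93 and 6.71, and 17 sites of both lists. The strongest, at chr9:63706068-63706822, had an AP-1 and a WT1 match. *Ltbp1* (11.8), a binding protein of latent TGF-beta, *Inhba* (10.5), the activin beta A chain, and *Bmpr2* (10.4), a BMP receptor, followed.

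Of the marker genes of other kidney cells, the endothelial, mesangial and immune lists had PBS-only shares above the 38.3% of all protein-coding genes, with intervals that include it, and what part other cells had in the pooled lists was not tested. Endothelial markers held 13 of 27 intronic PBS peaks as PBS-only (48.1%, interval 30.7% to 66.01%). These lay in 8 of 19 genes (42.1%), led by *Erg* (15.3), an ETS factor, and *Flt1* (14.8), a VEGF receptor. Mesangial and smooth muscle markers held 11 of 21 (52.4%, interval 32.4% to 71.7%), in 6 of 12 genes (50%), among them *Itga8* and *Notch3*. Over all protein-coding genes, 13.3% held a site. The median total intron length was 34858 bp for endothelial and 26393 bp for mesangial markers, against 10473 bp over all protein-coding genes. Proximal tubule markers held 3 of 11 (27.3%), all in *Cubn*, and distal tubule and collecting duct markers held 0 of 0. Parietal epithelial markers held 6 of 19 (31.6%), led by *Pax8* (13.2), and immune cell markers held 4 of 7 (57.1%, interval 25.05% to 84.2%), led by *Cd4* (8.02). Synaptic genes with very long introns held 7 sites in 29.0 megabases of intron, or 0.24 per megabase, against 6.19 over all protein-coding genes. They had few intronic PBS peaks of any kind, and 7 of 21 were PBS-only (33.3%, interval 17.2% to 54.6%, which includes the 38.3%).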

How the data were processed

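FOXC2 ChIP-seq of sorted podocytes was analysed from the deposited peak lists, 1 per condition. The authors ran the nf-core/chipseq pipeline, in which trimmed reads were aligned to GRCm38 and narrow peaks were called, and pooled the 3 samples within each condition. Version and threshold of the peak caller are not given in the sources used here. Each deposited peak has a summit, a fold over the local control (a ratio), the −log10 of the caller's p-value and q-value, and a score. The deposited score and −log10 p were not used.

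Peaks shared a site when they overlapped by at least 1 base. Genes came from GENCODE M21 and sequence from RefSeq's GRCm38 genome. The host was the longest transcript with a consensus coding sequence over the summit, otherwise the longest of a protein-coding gene, otherwise the longest of any. Motifs were exact matches within 100 bp of the summit. Overlap, classes and motif matches were checked on simulated data. The analysis used Python 3.11.15, pandas 2.3.3, pysam 0.24.0 and statsmodels 0.14.6.

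No test between conditions was possible from the pooled lists. The sites, gene lists and motifs were chosen with earlier results of these data known. Sites and genes were named by rule, namely the 20 highest folds, the 10 coding host genes with the most sites, the highest folds with an AP-1 (6), forkhead, WT1 or TEAD match (3 each), up to 4 genes per list by strongest site, 3 sites on each side of the overlap rule, and the 8 genes with the most sites and no intronic site of both lists. *Hspg2*, *Spata13* and *Adgrg1* were named after their values were seen. All symbols of the gene lists were found. Alternatives are given in the closing section. Results at some genes and for 1 gene list are not reported here.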

Additional observations from a re-analysis of the deposited data

How the results depend on the processing

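Each main value was recomputed with other settings, and with one added after seeing the data, an intron number from the longest protein-coding transcript, which gave a first-intron share of 43.7%. No value reversed. The rule gave 4011 sites among peaks with a fold of at least 5 and 2721 among those with the 20000 smallest q of each list, and a number within 1.5 times of the reported one otherwise. The AP-1 share was 20.3% with a −log10 q of at least 5, 20.4% with fold 5 or more, 21.7% in the 20000 peaks and 10.5% within 50 bp. In the same order the AP-1 difference from sites of both lists was 12.8, 12.8, 14.4 and 6.72 points, and that from ADR-only sites was 17.97, 17.9, 19.1 and 9.33 points. At equal fold the former was 13.2. The forkhead difference from ADR-only sites was −10.6 within 50 bp and −10.7 at equal GC content. The WT1 difference from sites of both lists was −12.4 with fold 5 or more, −10.7 in the 20000 peaks, −11.5 at the peak midpoint, −12.3 within 50 bp and −8.40 at equal fold. The first-intron share was 41.1% with no ADR peak within 1 kb, 41.2% with promoters of 1 kb each side and 42.8% with protein-coding transcripts. The causes were not tested. No paired analysis was possible because each condition is 1 pooled list, although the labels number the samples alike, and for the same reason no replicate could be left out. The unknown depth of the lists limits what an absent peak can mean, since a site under the caller's threshold after ADR counts as PBS-only.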

Other observations

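The bases beside the AP-1 core differed between the groups. Read on the strand with C in the middle, the nearest match with both neighboring bases in the window had a purine before it and a pyrimidine after it in 413 of 1154 PBS-only sites (35.8%), 187 of 699 sites of both lists (26.8%), 15 of 171 ADR-only sites (8.77%) and 111 of 504 flanking windows of PBS-only sites (22.0%). The most frequent 9 bases were GTGACTCAG in PBS-only sites (153, 13.3%) and CTGACTCAG in ADR-only sites (59, 34.5%). CTGACTCAG was also the most frequent in sites of both lists (99, 14.2%). As given above, a MAF match accompanied AP-1 more often in these groups than in PBS-only sites.

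The motif of CTCF, a chromatin architecture factor, was held by 120 PBS-only sites, or 1.96%, against 0.81% of sites of both lists (difference 1.14, interval 0.77 to 1.55) and 0.17% of the flanks. It was not particular to introns, since intergenic PBS-only peaks held it in 3.12% and promoter PBS-only peaks in 2.19%. Unlike AP-1, the CTCF motif was less frequent at high fold, with 2.12% of PBS-only sites in the lowest quintile by fold and 0.57% in the highest. The other groups fell as well, sites of both lists from 1.51% to 0.16% and ADR-only sites from 1.11% to 0.069%. How much of the difference from sites of both lists went with their higher folds was not tested.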
